A study of Mus musculus with 9 samples.

Results

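The genes described here are 10 genes of vascular endothelial cells, chosen by name: Cldn5, Cdh5, Esam and Pecam1, which act at cell junctions, Flt1, Kdr, Tie1, Tek and Robo4, which are receptors, and the secreted factor Egfl7. All 10 were among the 3958 genes of the count table. RNA sequencing had measured adipose tissue of male C57BL/6J mice, an inbred strain prone to obesity when fed fat, at day 21. Mice of the EA group (libraries 5, 7 and 8) received electroacupuncture, in which a current passes through acupuncture needles. The other libraries carry the prefix MPX (3 libraries, 2, 5 and 7) or CPX (3 libraries, 4, 6 and 8). By the series design the groups are mice on a normal diet, on a high-fat diet, and on a high-fat diet with electroacupuncture. The labels do not tie CPX or MPX to a diet, so no difference is given a diet direction. They also name no fat depot, and they leave unsaid whether mice were pooled or sampled more than once, so a p-value here measures spread among libraries alone.

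Endothelial cells line every blood vessel. VE-cadherin, the product of Cdh5, holds neighbouring cells together, and claudin-5 (Cldn5) seals the tight junctions between them, with ESAM and PECAM-1 as further adhesion molecules of the contact. Growth of vessels is driven by VEGF acting through VEGFR2 (Kdr), while VEGFR1 (Flt1) binds the same ligand and acts largely as a trap for it. Angiopoietins act through Tie2 (Tek), with Tie1 as its partner receptor, and Robo4 is an endothelial receptor of the roundabout family that stabilises vessels. In fat, capillaries lie against nearly every adipocyte, and their growth is known to accompany the growth of the depot.

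The starts of 7 of the 10 genes were found in RefSeq (GRCm38.p6), as 9 windows, since Egfl7 has 3 starts. Each window was the 250 bases before a start. The windows of Cldn5, the member with the largest difference in EA against MPX, and of the receptors Flt1, Kdr and Tek are shown, to set beside the different patterns given further on. Capitals mark matches, on either strand, to AGGAAG (a core of binding sites of ETS factors), GGGCGG (known as the GC box) or TATAAA (as in the TATA box), and no 2 matches overlapped in these 4 windows.

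Cldn5, chr16:18776597-18776846, plus strand: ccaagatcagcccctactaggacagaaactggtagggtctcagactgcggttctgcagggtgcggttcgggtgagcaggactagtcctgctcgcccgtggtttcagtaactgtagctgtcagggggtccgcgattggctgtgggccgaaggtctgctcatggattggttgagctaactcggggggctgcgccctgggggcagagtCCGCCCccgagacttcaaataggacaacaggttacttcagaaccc

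Flt1, chr5:147726012-147726261, minus strand: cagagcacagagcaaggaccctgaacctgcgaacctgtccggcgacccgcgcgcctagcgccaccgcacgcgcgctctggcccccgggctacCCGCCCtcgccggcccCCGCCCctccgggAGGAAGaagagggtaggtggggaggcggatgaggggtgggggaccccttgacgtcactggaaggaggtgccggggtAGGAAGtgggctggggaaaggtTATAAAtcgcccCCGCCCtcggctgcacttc

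Kdr, chr5:75978456-75978705, minus strand: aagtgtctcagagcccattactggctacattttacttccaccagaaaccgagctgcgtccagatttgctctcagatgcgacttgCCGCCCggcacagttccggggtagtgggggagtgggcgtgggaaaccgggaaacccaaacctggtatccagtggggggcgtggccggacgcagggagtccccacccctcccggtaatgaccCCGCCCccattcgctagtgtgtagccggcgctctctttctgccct

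Tek, chr4:94739039-94739288, plus strand: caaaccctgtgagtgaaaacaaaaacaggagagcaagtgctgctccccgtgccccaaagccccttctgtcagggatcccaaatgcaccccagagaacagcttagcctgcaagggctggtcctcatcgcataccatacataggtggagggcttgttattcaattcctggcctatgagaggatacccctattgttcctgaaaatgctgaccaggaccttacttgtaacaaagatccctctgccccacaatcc

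The Flt1 window held 2 matches to AGGAAG, 3 GC boxes and a TATAAA whose first base lay 31 bases before the start. The Cldn5 window held 1 GC box and the Kdr window 2, and the Tek window held 0 matches. AGGAAG was found in 5 of the 9 windows (of Egfl7, Flt1, Robo4 and Tie1) and in 29.5% of all 32851 windows. GGGCGG was found in 4 of the 9 (of Cldn5, Egfl7, Flt1 and Kdr) and in 32.7% of all windows. TATAAA was found in 1 of the 9, that of Flt1, and in 12.4% of all windows, and AGATAA, a match to the sites of GATA factors, in 0 member windows and 9.99% of all. Such matches describe the letters only.

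Levels are given as CPM, a gene's count scaled to the listed counts of its library after TMM normalization. The listed counts summed to 12115183 to 14208853 per library; these sums cover only the most abundant genes and are not sequencing depths. The members themselves held 392 to 8438 counts per library, so that counting error is small beside the spread between libraries. The libraries were uneven within CPX. CPX 6 held 4964 CPM of 9 listed B cell markers, against 765.6 to 2234 CPM in EA, 32.8 to 54.0 CPM in MPX and 21.8 to 57.2 CPM in the other 2 CPX libraries, and it held 7942 CPM of 13 adipocyte markers where the other 8 libraries held 31790 to 91840 CPM. In CPX 4, 9 mitochondrially encoded genes summed to 149000 CPM, against at most 57800 CPM elsewhere. All 10 members were well above 0 in every library. The listed genes included none of the chosen markers of T cells, platelets, skeletal muscle, epithelium, high endothelial venules or retina (the extraction text of the labels speaks of retinas), which were not analysed here.

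Per kilobase of the gene length in the table, Cldn5 and Cdh5 had the highest levels in EA, at 82.2 ± 33.3 and 75.8 ± 15.9 CPM per kb (SD, n = 3), and the difference between them was within their spread. Pecam1 (55.5 ± 7.47) and Esam (38.1 ± 8.26 CPM per kb) came next. Kdr, Tie1 and Egfl7 lay together at 25.7 ± 3.41, 25.5 ± 5.60 and 25.3 ± 2.97 CPM per kb, below Esam. Tek (19.7 ± 2.66), Robo4 (18.4 ± 5.67) and Flt1 (13.8 ± 1.97 CPM per kb) were lowest. Cldn5 also had the highest mean in MPX (188 ± 67.4 CPM per kb) and in CPX (101 ± 25.8), and Flt1 the lowest in both, at 14.9 ± 1.24 CPM per kb in MPX.

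All 10 members had their highest group mean in MPX, beside 33.0% of all 3958 genes; the names were chosen with earlier results of these data known. For 8 of them the single highest library was MPX 5, beside 13.4% of all genes, and for 7 the lowest was CPX 6, beside 33.1%. The lowest group mean was that of CPX for 8 members and that of EA for Cldn5 and Pecam1. None of the 10 passed the test in any of the 3 comparisons between groups, which does not show that their levels were alike. Each was tested by quasi-likelihood in edgeR, fitted to the 9 libraries together, with p-values adjusted over 3958 genes in each comparison.

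**Figure D1:**
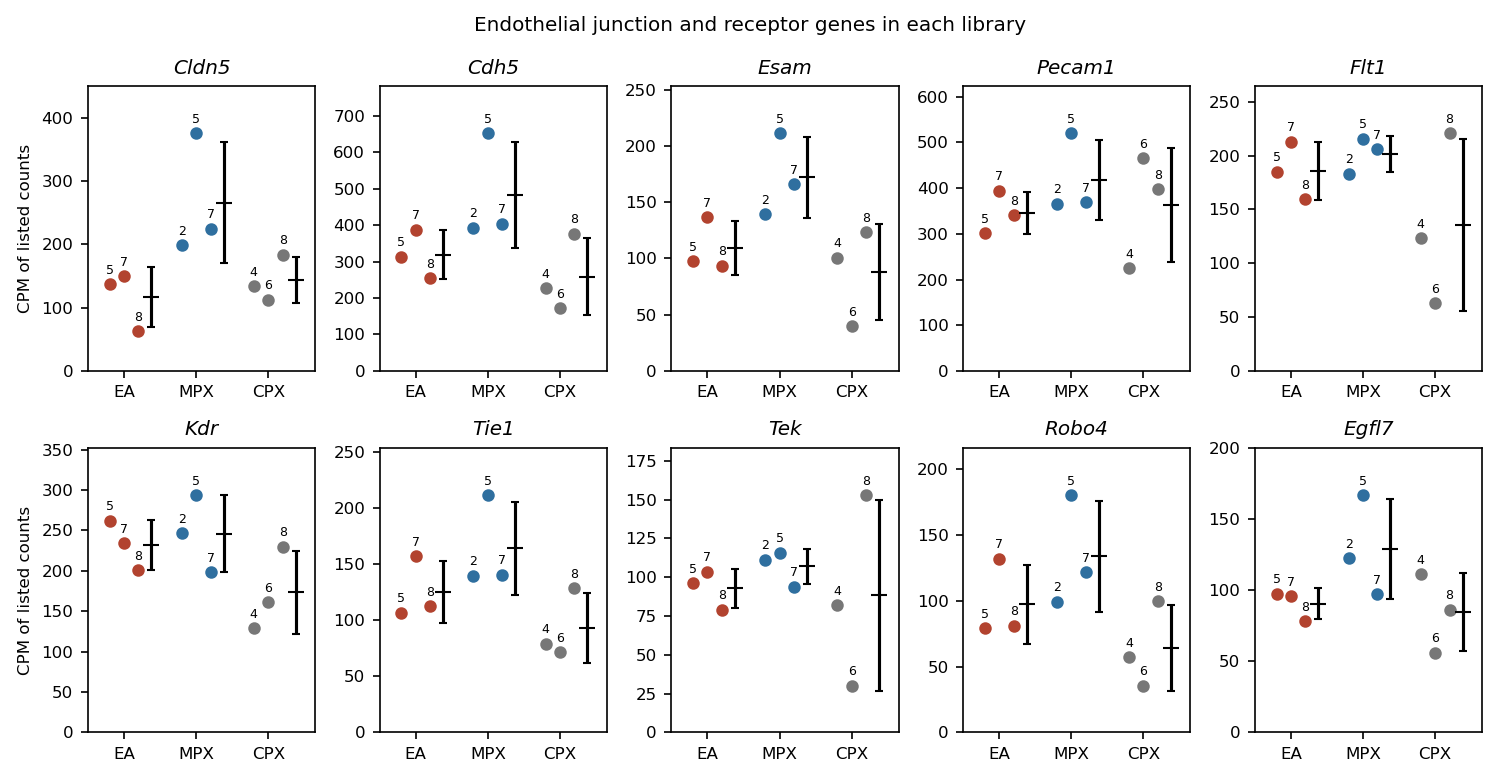
CPM of each of the 10 genes in each library (points, with the library's number) in EA, MPX and CPX; the black bar is the group mean ± SD (n = 3). MPX 5 lies highest for 8 genes, and CPX 6 lowest for 7.

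The first comparison set EA against MPX, a group without electroacupuncture. The largest difference among the 10 genes was in Cldn5, a junction gene. Cldn5 (chromosome 16, 18776847 to 18778262, plus strand, mm10) stood at 137, 149 and 62.4 CPM in EA 5, 7 and 8, against 198, 375 and 225 CPM in MPX 2, 5 and 7. All EA values lay below all MPX values, with EA 8 lowest and MPX 5 highest. The log2 difference was -1.19 (SE 0.40), a level in EA of 0.437 times that in MPX, with an unadjusted edgeR p of 0.0158 and an adjusted p of 0.775.

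Cdh5 (chromosome 8, 104101625 to 104144511, plus strand) had 313, 388 and 254.5 CPM in EA, against 393, 652 and 404 CPM in MPX. Esam, the endothelial cell-selective adhesion molecule (chromosome 9, 37528078 to 37538319, plus strand), had 97.8, 136.5 and 93.6 CPM in EA, against 139, 211 and 166 CPM in MPX. For both genes the groups did not overlap, but the gap was narrow, since EA 7 came within a few CPM of MPX 2. Their log2 differences were -0.60 (SE 0.36) for Cdh5 and -0.65 (SE 0.40) for Esam, with an edgeR adjusted p of 0.775 each. Pecam1 (chromosome 11, 106654217 to 106750628, minus strand), which leukocytes and platelets carry as well as endothelium, had 301, 394 and 341 CPM in EA against 366, 520 and 370 CPM in MPX. Its groups overlapped, and its difference was -0.28 (SE 0.32).

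Among the receptors, Robo4 (chromosome 9, 37401897 to 37415115, plus strand) had 79.0, 132 and 81.0 CPM in EA, against 99.4, 180.5 and 122 CPM in MPX. Tie1 (chromosome 4, 118471191 to 118490061, minus strand) had 106, 157 and 112.5 CPM in EA, against 139.5, 211 and 140.2 CPM in MPX. In both genes EA 7 reached into the MPX range, and the log2 differences were -0.46 (SE 0.41) and -0.39 (SE 0.30). Kdr (chromosome 5, 75932827 to 75978458, minus strand) had 262, 234 and 201 CPM in EA against 246, 294 and 198 CPM in MPX. Flt1 (chromosome 5, 147561604 to 147726011, minus strand) had 185, 213 and 159 CPM in EA against 183, 216 and 206 CPM in MPX. The groups overlapped widely for both VEGF receptors, with differences of -0.084 (SE 0.27) for Kdr and -0.12 (SE 0.40) for Flt1. Tek (chromosome 4, 94739289 to 94874976, plus strand) had 96.2, 103.5 and 79.1 CPM in EA against 111, 116 and 94.0 CPM in MPX, a difference of -0.20 (SE 0.48).

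Egfl7 (chromosome 2, 26580014 to 26593120, plus strand), a matrix-bound factor that endothelial cells secrete, had 97.6, 95.9 and 78.4 CPM in EA against 123, 167 and 97.2 CPM in MPX. EA 5 lay just above MPX 7, and the difference was -0.51 (SE 0.30). Egfl7 overlaps Agpat2 on the opposite strand and Gm20532 on its own strand in GENCODE M21, and Cdh5 overlaps an antisense transcript. Each of these overlaps covers only part of the member gene. Within the shared stretches reads cannot be told apart, by strand in the case of Gm20532, and otherwise because no strand setting is given.

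Over the 10 genes, 0 passed the edgeR test in EA against MPX, beside 0.0% of all genes tested. All 10 had negative differences, from -1.19 to -0.084 with a median of -0.42 (Kdr was 0.012 without scaling factors), beside 48.6% negative and a median of 0.012 over all genes. The groups did not overlap, with EA lower, for 3 of the 10 (Cldn5, Cdh5 and Esam), beside 19.0% of all genes; 1 of the 10, Cldn5, had an unadjusted p under 0.05, beside 5.1% of all genes (3.01% with EA lower). DESeq2 and limma voom also called 0 members, with smallest adjusted p-values of 0.102 and 0.787; DESeq2 called 1.24% of all genes. The B cell markers moved with this comparison: their sum was 765.6 to 2234 CPM in EA and 32.8 to 54.0 CPM in MPX. With the mean log2 level of those 9 markers as a covariate, the members' median became -0.0094, with 5 positive and 5 negative; Cldn5 was -0.86 and Tek 1.17. EA and MPX did not overlap in that covariate, and CPX 6 was the only library outside EA with a high value of it. Without MPX 5 the median was -0.20 and Cldn5 -0.89, and no member had an unadjusted p under 0.05 (0 of 10 by edgeR's test). With EA and MPX fitted alone, the edgeR adjusted p was 0.0964 for Esam, 0.1 for Cldn5 and 0.143 for Egfl7. That fit called 84 of all genes, and none of the members. Of 13 adipocyte markers 10 had negative differences (median -0.51), and their sum was 31790 to 47060 CPM in EA and 49740 to 60440 CPM in MPX, without overlap. Mast cell markers (3 listed) summed to 213 to 524 CPM in EA and 42.2 to 182 CPM in MPX. A set of 5 listed immediate early genes, which stress on tissue induces, summed to 349.8 to 421 CPM in EA and 501 to 1371 CPM in MPX, and the part of adipocyte, mast cell and immediate early genes in the result was not tested. In whole tissue, fewer cells of a type and less RNA per cell cannot be told apart.

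**Figure D2:**
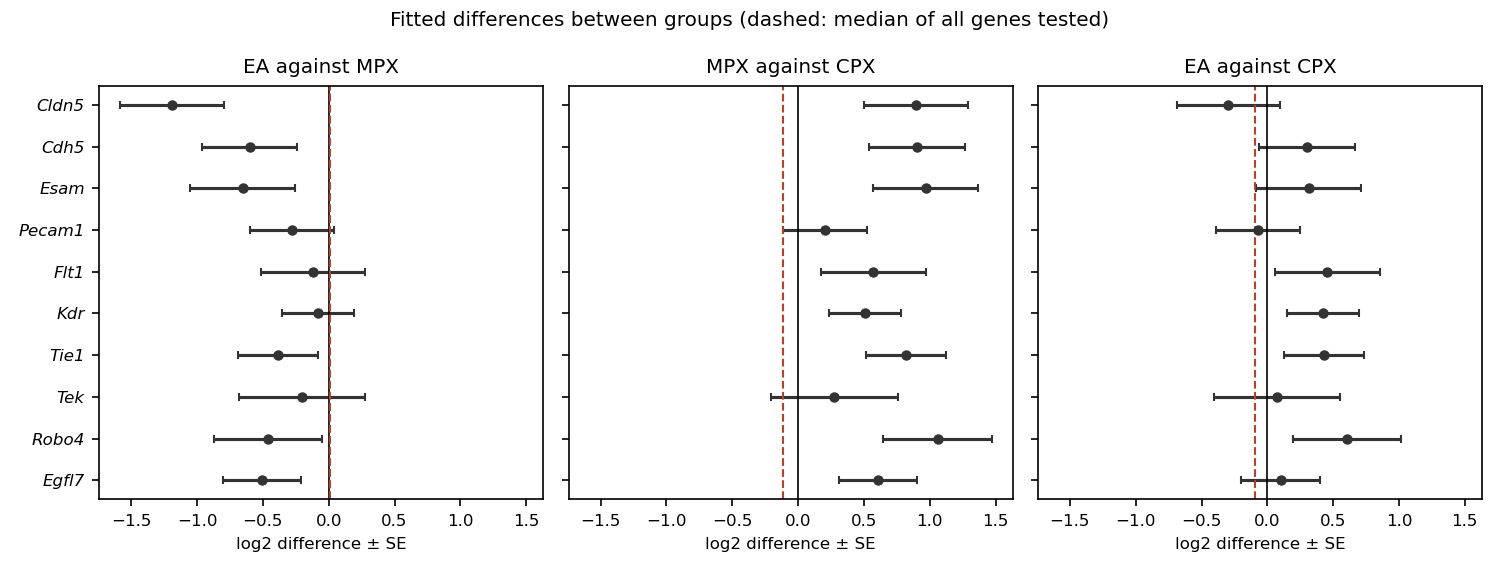
Fitted log2 difference of each gene (point) ± SE in EA against MPX, MPX against CPX and EA against CPX; the dashed line is the median of all 3958 genes. All 10 points lie below 0 in EA against MPX (Kdr at 0.012 without scaling factors) and above 0 in MPX against CPX; in EA against CPX 8 of 10 lie above 0 (9 with Pecam1 at 0.076 without them).

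MPX was next compared with CPX. These groups differ in diet by the series design. This comparison shares the MPX libraries with the one before, so a library such as MPX 5 enters both. Cldn5 had 198 to 375 CPM in MPX, against 133, 112 and 183 CPM in CPX 4, 6 and 8. Cdh5 had 393 to 652 CPM in MPX, against 227, 172.5 and 376 CPM in CPX. Esam had 139 to 211 CPM in MPX, against 101, 39.8 and 123 CPM in CPX. In these 3 junction genes every MPX library lay above every CPX library, with CPX 8 the closest to MPX. The log2 difference was 0.90 (SE 0.39) for Cldn5, 0.90 (SE 0.36) for Cdh5 and 0.97 (SE 0.40) for Esam. For Pecam1 the order broke, with 366 to 520 CPM in MPX against 224, 466 and 397 CPM in CPX 4, 6 and 8. CPX 6 lay above 2 of the 3 MPX libraries, and the difference was 0.21 (SE 0.32).

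Robo4 had the largest difference, 1.06 (SE 0.41), or 2.09-fold. It had 99.4 to 180.5 CPM in MPX, against 57.0, 35.5 and 99.7 CPM in CPX 4, 6 and 8, where CPX 8 just exceeded the lowest MPX library. Tie1 had 139.5 to 211 CPM in MPX, against 79.1, 71.2 and 128 CPM in CPX, without overlap and with a difference of 0.82 (SE 0.30, unadjusted p = 0.0267, edgeR adjusted p = 0.362). The VEGF receptors overlapped between the groups: Kdr had 198 to 294 CPM in MPX, against 129, 161 and 230.0 CPM in CPX 4, 6 and 8, and a difference of 0.51 (SE 0.27). Flt1 had 183 to 216 CPM in MPX, against 123, 62.6 and 220.5 CPM in CPX, and a difference of 0.57 (SE 0.40), with CPX 8 the highest of all 9 libraries. Tek had 94.0 to 116 CPM in MPX, against 82.0, 30.1 and 153 CPM in CPX, and a difference of 0.28 (SE 0.48). As in Flt1, CPX 8 was the highest and CPX 6 the lowest of the 9 libraries. Egfl7 had 97.2 to 167 CPM in MPX, against 111, 56.2 and 86.4 CPM in CPX, and a difference of 0.61 (SE 0.30).

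By edgeR 0 of the 10 members passed in MPX against CPX, beside 0.0% of all genes. The members' differences were all positive, from 0.21 to 1.06 with a median of 0.71, beside 40.7% positive and a median of -0.11 over all genes. For 4 members (Cldn5, Cdh5, Esam and Tie1) the groups did not overlap, with MPX higher, beside 8.46% of all genes. An unadjusted p under 0.05 with a higher level in MPX was found for Robo4, Tie1, Esam and Cdh5, 4 of 10, beside 4.98% of all genes (13.2% in either direction). DESeq2 called 0 members (smallest adjusted p = 0.0801) and 5.08% of all genes, and limma voom called 0 members as well (0.483). The size of the difference depended on single libraries. With CPX 4 and CPX 6 left out, so that CPX 8 stands alone and is assumed to vary like the other groups, the median was 0.38 and Flt1 (-0.10) and Tek (-0.49) were lower in MPX. Without CPX 6 the median was 0.54 and Tek was -0.14. Without CPX 8 the median was 1.14 and the members' smallest edgeR adjusted p was 0.0771, in a fit that called 168 of all genes. Without MPX 5 the median was 0.56 and the smallest edgeR adjusted p was 0.797. With the B cell covariate the median was 0.57, with 9 positive. The immediate early genes summed to 501 to 1371 CPM in MPX and 296 to 485 CPM in CPX, and their part here was not tested.

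In EA against CPX, which shares its libraries with both comparisons above, the differences ran from -0.30 to 0.60. The groups overlapped for all 10, so 0 were separate, beside 2.1% of all genes separate with EA higher and 5.08% with EA lower, and CPX 8 lay at or above the lowest EA library for each of the 10. The largest difference was that of Robo4, 0.60 (SE 0.41), with means of 97.4 ± 30.0 CPM in EA and 64.1 ± 32.7 CPM in CPX (SD, n = 3 each). For Flt1 the means were 186 ± 26.6 CPM in EA and 135.5 ± 79.6 CPM in CPX (log2 difference 0.45, SE 0.40). For Kdr they were 232 ± 30.8 CPM in EA and 173 ± 51.8 CPM in CPX (0.42, SE 0.27), and for Tie1 125 ± 27.5 CPM in EA and 92.8 ± 31.0 CPM in CPX (0.43, SE 0.30). Of the junction genes, Cdh5 and Esam had differences of 0.30 (SE 0.36) and 0.31 (SE 0.40), while those of Cldn5 (-0.30, SE 0.39) and Pecam1 (-0.069, SE 0.32) were negative. Egfl7 (0.10, SE 0.30) and Tek (0.074, SE 0.48) had differences well inside their errors.

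In EA against CPX 0 of the 10 passed the edgeR test, beside 0.0% of all genes, and 0 had an unadjusted p under 0.05, beside 2.96% of all. The median was 0.31, with 8 positive and 2 negative (Pecam1 was 0.076 without scaling factors and 0.037 with upper quartile scaling), beside 39.0% positive and a median of -0.093 over all genes. DESeq2, which called 0.126% of all genes, called 0 members, and limma voom called 0 too. Without CPX 8 the median was 0.68 and the members' smallest edgeR adjusted p was 0.28, in a fit that called 0 of all genes. Without EA 7 the median was 0.13. Without CPX 6 the median was 0.085 with 6 positive. With CPX 4 and CPX 6 left out it was -0.20 with 2 positive and 8 negative. With the B cell covariate it was 0.59, and the smallest edgeR adjusted p was that of Flt1 (log2 difference 1.12, adjusted p = 0.0697).

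Ratios of 2 members within a library do not depend on how libraries are scaled. These pairs were chosen with the values known, and the ratios are given as a description. Cldn5 RNA relative to Cdh5 RNA lay lower in EA: the ratio of Cldn5 to Cdh5 counts was 0.438, 0.385 and 0.245 in EA 5, 7 and 8, against 0.505, 0.576 and 0.556 in MPX 2, 5 and 7 and 0.587, 0.651 and 0.488 in CPX 4, 6 and 8. The EA range lay below both other ranges, and EA 8 lay farthest from them. In Cldn5 the 3 EA libraries also stood at -0.16, -0.33 and -1.15 on the log2 scale relative to the mean of the other 9 members, after centring on the 9 libraries. The MPX libraries stood at 0.12 to 0.56 and the CPX libraries at 0.02 to 0.44. Cldn5 itself was the member with the largest spread within EA (CV 40.5%), and without EA 8 its difference in EA against MPX was -0.89.

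The ratio of Pecam1 to Cdh5 set one library apart. It was 0.961, 1.02 and 1.34 in EA 5, 7 and 8, 0.932, 0.798 and 0.915 in MPX 2, 5 and 7, and 0.987, 2.70 and 1.06 in CPX 4, 6 and 8. The highest values were those of CPX 6 and EA 8, the 2 libraries with the most B cell markers (4964 and 2234 CPM). EA 7 and EA 5 held 1219 and 765.6 CPM of these markers, and their ratios lay below that of CPX 8, which held 57.2 CPM. The part of B cells in this ratio was not tested. With the B cell covariate Pecam1 had a difference of -0.85 in EA against MPX and 0.51 in MPX against CPX. Flt1 relative to Kdr was also unusual in CPX 6, at 0.389, where the other 8 libraries gave 0.706 to 1.04. Tek relative to Tie1 was 0.904, 0.660 and 0.703 in EA, 0.799, 0.548 and 0.671 in MPX, and 1.04, 0.423 and 1.19 in CPX 4, 6 and 8. CPX thus held both the lowest and the highest values of that receptor ratio.

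**Figure D3:**
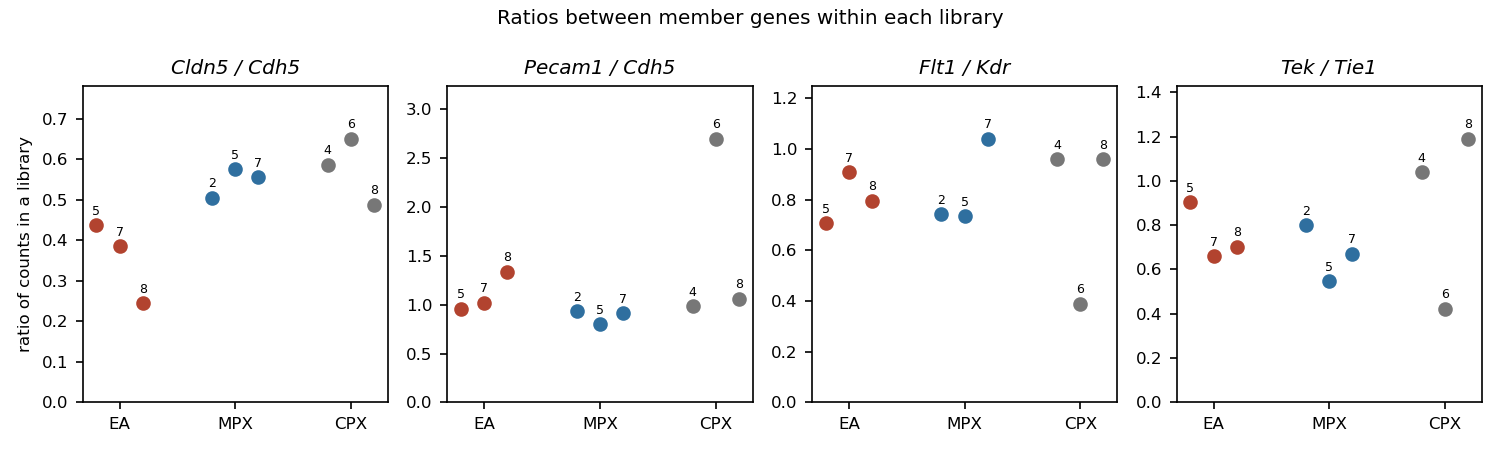
Ratio of the counts of 2 member genes in each library (points, with the library's number) in EA, MPX and CPX. The Cldn5 to Cdh5 ratio is 0.245 to 0.438 in EA and at least 0.488 elsewhere, and CPX 6 stands apart in the Pecam1 to Cdh5 ratio at 2.70.

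The members' own profiles, each log2 CPM centred on its mean over the 9 libraries, were compared by their root mean square difference. Cdh5 lay closest to the mean profile of the 10 (0.10), followed by Tie1 (0.13), and Cdh5 and Tie1 were also each other's nearest member (0.15). Flt1 and Tek were each other's nearest (0.20), both low in CPX 6 and high in CPX 8. Robo4 was nearest to Cdh5 (0.20) and Esam to Robo4 (0.21). The genes for Robo4 and Esam lie 112962 bases apart on chromosome 9, with 2 protein coding genes between them. Pecam1 (0.46) and Cldn5 (0.44) lay farthest from the mean profile, with 925 and 805 genes outside the 10 closer to it. The median was 0.60 for all other genes. The profile was made from the 10 members, which draws them nearer to it, so that median is no fair measure for them.

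The mean profile itself was highest in MPX 5 (0.75) and lowest in CPX 6 (-0.88) and CPX 4 (-0.40). EA 5, 7 and 8 stood at -0.05, 0.22 and -0.29, MPX 2 and 7 at 0.23 each, and CPX 8 at 0.20. The mean of the listed markers of mural cells, which wrap the vessels, was likewise highest in MPX 5 and lowest in CPX 6. Single mural markers differed from this mean. Only Notch3 and Mcam were highest in MPX 5, and only Cspg4 and Mcam lowest in CPX 6. Rgs5, Cspg4, Acta2 and Myh11 were highest in CPX 8, and Pdgfrb, Notch3, Acta2 and Myh11 lowest in CPX 4. Of 12 such markers 7 were listed (Mcam, among them, is also an endothelial gene), and their mean stood at 0.19, 0.18 and -0.38 in EA 5, 7 and 8, 0.18, 0.75 and 0.08 in MPX 2, 5 and 7, and -0.67, -0.97 and 0.63 in CPX 4, 6 and 8. Their summed level was 834 to 1371 CPM in EA, 1353 to 2318 CPM in MPX and 707 to 1846 CPM in CPX. Adipocyte markers were low in CPX 6 (-2.43) but high in CPX 4 (0.99), and macrophage markers were highest in EA 8 (1.27). None of the markers listed for these types was at 0 in any library. Their part in the differences of the endothelial genes was not tested. A B cell covariate was fitted, but EA and MPX did not overlap in it, and outside EA only CPX 6 was high. The part of B cells therefore cannot be told apart from the groups.

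**Figure D4:**
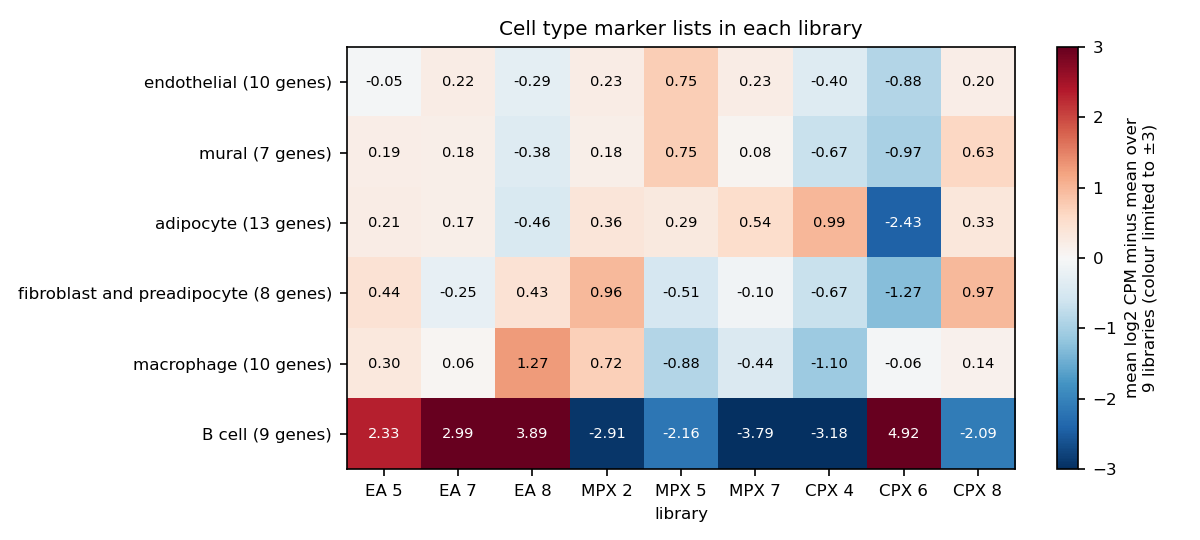
Mean log2 CPM of each marker list (rows, with the number of listed genes) in each library (columns, EA, MPX, CPX), minus its mean over the 9 libraries. The endothelial and mural row means are both highest in MPX 5 (0.75 each) and lowest in CPX 6 (-0.88 and -0.97). The mural row includes Mcam, which is also endothelial. Of the single mural genes, Rgs5, Cspg4, Acta2 and Myh11 are highest in CPX 8, and Pdgfrb, Notch3, Acta2 and Myh11 lowest in CPX 4.

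The genes outside the 10 whose profile was most like their mean were Luzp1 (root mean square difference 0.11 over 9 libraries), Ece1 (0.11), Mprip (0.12), Lrp5 (0.13), Actn4 (0.14), Ramp2 (0.14), Crip2 (0.14) and Adcy6 (0.14). Ece1 encodes the enzyme that activates endothelin, a vasoconstrictor peptide, and Ramp2 a partner of the adrenomedullin receptor. Actn4 encodes an actin-bundling actinin and Mprip a protein that binds myosin phosphatase. Ece1 had 191, 262 and 207 CPM in EA 5, 7 and 8, against 271, 356 and 293 CPM in MPX 2, 5 and 7 and 157, 129.9 and 256 CPM in CPX 4, 6 and 8. Its highest library was MPX 5 and its lowest CPX 6, as in the members' mean profile. This follows largely from choosing Ece1 by its nearness to that profile.

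Other vessel genes were taken from 5 lists of 92 genes, of which 51 were listed. Of these, 0 passed the edgeR test in any comparison, and limma voom called 0. DESeq2 called 1, Sox18 in MPX against CPX (log2 difference 0.91, adjusted p = 0.0205), beside 5.08% of all genes called by DESeq2 in that comparison. In EA against MPX 39 of the 51 had negative differences (median -0.15), and 0 had an unadjusted p under 0.05. In MPX against CPX 42 had positive differences (median 0.44), 6 of them with an unadjusted p under 0.05, beside 4.98% of all genes. In EA against CPX 39 were positive (median 0.20), 1 of them, Sox18, with an unadjusted edgeR p under 0.05 (0.0163), beside 0.96% of all genes. In edgeR's fit Sox18, a transcription factor of endothelial and lymphatic development, had an adjusted p of 0.362 in MPX against CPX. It had means of 77.8 ± 11.8 CPM in EA, 86.0 ± 23.3 CPM in MPX and 46.2 ± 6.58 CPM in CPX (SD, n = 3 each).

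Among 6 listed ligands and co-receptors of the VEGF and angiopoietin systems, the direction was mixed. Vegfa, the main ligand of Kdr and Flt1, had 264, 341 and 238.5 CPM in EA 5, 7 and 8, against 248.5, 228.5 and 255 CPM in MPX 2, 5 and 7. The groups overlapped, with a difference of 0.21 (SE 0.48). Its sign was opposite to that of Kdr and Flt1, but each of these differences lay inside its error, so the signs carry little weight. Ptprb, a phosphatase that dampens Tie2 signalling, stood at 321 ± 139 CPM in EA (mean ± SD), against 443 ± 101 CPM in MPX (-0.46, SE 0.56), and Nrp1, a VEGF co-receptor, 244 ± 25.5 CPM in EA and 272 ± 18.5 CPM in MPX (-0.15, SE 0.33). For Nrp1 in MPX against CPX, where CPX averaged 180.0 ± 91.2 CPM, the difference was 0.59 (SE 0.33, edgeR adjusted p = 0.432).

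The Notch and ALK1 list had 7 listed genes, 5 negative in EA against MPX and 6 positive in MPX against CPX. Notch4, a Notch receptor of endothelium, stood at 64.5 ± 22.3 CPM in EA (mean ± SD), against 105 ± 41.7 CPM in MPX (-0.70, SE 0.47). Its difference in MPX against CPX, where CPX had 45.0 ± 26.8 CPM, was 1.22 (SE 0.47, edgeR adjusted p = 0.363). Among 4 listed guidance genes, Ephb4, a receptor typical of veins, had means of 88.9 ± 8.54 CPM in EA, 108 ± 23.4 CPM in MPX and 57.4 ± 25.5 CPM in CPX. Sema3g, a semaphorin of arterial endothelium and fat, had means of 87.7 ± 34.9 CPM in EA, 143 ± 43.6 CPM in MPX and 56.0 ± 40.4 CPM in CPX. For both, MPX had the highest mean, as for the 10 members, and neither passed the edgeR test.

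Among 8 listed junction partners 7 had negative differences in EA against MPX and 8 had positive ones in MPX against CPX. Mcam (CD146), an adhesion molecule of endothelial and mural cells, stood at 271 ± 113 CPM in EA (mean ± SD), against 653 ± 251 CPM in MPX, without overlap (-1.27, SE 0.61, edgeR adjusted p = 0.775). Afdn, the afadin that ties adhesion molecules to actin, stood at 156 ± 31.1 CPM in EA, against 230 ± 39.9 CPM in MPX (-0.56, SE 0.38). Of 26 listed further endothelial genes 20 had negative differences in EA against MPX and 20 positive ones in MPX against CPX. Among these, Cav1, the caveola protein that adipocytes also make in quantity, stood at 1604 ± 751 CPM in EA, against 3338 ± 633 CPM in MPX (-1.06, SE 0.75). Cd93, a receptor of endothelium, had means of 199 ± 47.2 CPM in MPX and 100 ± 57.4 CPM in CPX (0.99, SE 0.41, edgeR adjusted p = 0.374). Lyve1, the one listed marker of lymphatic endothelium, which resident macrophages also make, had a difference of 1.91 (SE 0.67, edgeR adjusted p = 0.775) in EA against MPX, opposite in sign to the 10 members, with 174, 112 and 226.5 CPM in EA 5, 7 and 8 against 54.3, 27.3 and 55.0 CPM in MPX 2, 5 and 7. The groups did not overlap. CPX 4, 6 and 8 held 23.7, 145 and 185 CPM of it.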

How the data were processed

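Adipose tissue RNA of 9 libraries, 3 in each of EA, MPX and CPX, was analysed. Per the submitters' processing notes, HISAT2 2.0.5 and mm10 were used; how reads were counted, and with which annotation and strand setting, is not given in the sources used here. Per the file headers, the authors deposited gene counts in 1 column for every library, beside names, coordinates and lengths. The table runs through 3958 genes in falling order of total count (3653827 to 8471) and ends inside its last row, whose counts are complete; less abundant genes were not analysed here. Names of 11 genes were restored from their IDs. All 10 genes had the same coordinates in GENCODE M21.

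Counts were tested with edgeR 4.0.16 (R 4.3.3): a mean per group over 9 libraries, TMM factors (0.753 in CPX 4, 0.981 to 1.10 elsewhere), filterByExpr, which removed no gene, robust quasi-likelihood estimation and Benjamini-Hochberg adjustment over 3958 genes in each of 3 comparisons. SE was obtained from the fitted log2 difference and its F statistic. The fit was checked on simulated data. DESeq2 1.42.0, limma 3.58.1 voom, other scalings, filters, left-out libraries, a B cell covariate and a replicate block were alternatives. Libraries of a group differed beyond counting noise (chi-square per degree of freedom at least 71.5).

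The members, gene lists, markers and tests were chosen with earlier results of these data known. All members are named, with at most the 3 smallest p-values of each other vessel list and comparison, markers beside a result, and the 8 genes nearest the members by root mean square difference of centred log2 CPM. Promoter windows are RefSeq's (GRCm38.p6).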

Additional observations from a re-analysis of the deposited data

How the results depend on the processing

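Of 560 values of the 10 genes under alternatives, those with another filter left out, 521 kept their direction and 39 took the other, and 0 passed the threshold; the smallest adjusted p was 0.0697 (Flt1 in EA against CPX with the B cell covariate). Counts of all genes called, 0 in each comparison, were not stable. DESeq2 called 49 in EA against MPX, 201 in MPX against CPX and 5 in EA against CPX, and the B cell covariate gave 298, 20 and 341. In EA against MPX, the 2 groups alone gave 84 and leaving out CPX 4 and 6 gave 80. Leaving out each library gave 0 to 23 in EA against MPX, 0 to 168 in MPX against CPX (168 without CPX 8) and 0 to 12 in EA against CPX (12 without CPX 6).

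With each library left out, Kdr in EA against MPX ran from -0.25 to 0.04, in MPX against CPX Pecam1 from -0.0078 to 0.43 and Tek from -0.14 to 0.96, and in EA against CPX Cldn5 from -0.52 to 0.0027, Egfl7 from -0.13 to 0.35, Esam from -0.045 to 0.63, Pecam1 from -0.32 to 0.14 and Tek from -0.35 to 0.72. Without scaling factors Kdr was 0.012 in EA against MPX and Pecam1 0.076 in EA against CPX, where upper quartile scaling gave 0.037 and limma voom 0.0081. Leaving out scaling factors put the median of all genes at 0.11, 0.0018 and 0.10 in EA against MPX, MPX against CPX and EA against CPX, where TMM gave 0.012, -0.11 and -0.093; the members' medians were then -0.32, 0.84 and 0.53.

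With the B cell covariate, EA against MPX was 0.24 for Robo4, 0.92 for Flt1, 0.041 for Egfl7, 0.38 for Esam and 1.17 for Tek, and MPX against CPX was -0.15 for Tek. With CPX 4 and 6 left out, MPX against CPX was -0.10 for Flt1 and -0.49 for Tek, and EA against CPX was -0.046 for Robo4, -0.045 for Tie1, -0.26 for Flt1, -0.18 for Esam, -0.25 for Cdh5 and -0.73 for Tek. The cause was not tested in these cases.

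No label says that a title number marks a shared animal or day. Deviations of EA and MPX correlated at 0.02 for number 5 and 0.13 for number 7, and those of EA and CPX at -0.51 for number 8. Libraries of unlike number correlated at -0.67 (EA 5 and CPX 6) to 0.71 (EA 8 and CPX 6), so these values cannot show whether libraries were paired. With a replicate block edgeR called 6 genes in EA against MPX, where numbers 5 and 7 are shared, and no member. Under that block Kdr was 0.037 in EA against MPX. In EA against CPX only number 8 is shared, so under the block the difference is that of EA 8 from CPX 8. This sets 1 library against 1 and is not a comparison of the groups. Of its 10 differences 0 were positive (median -0.35, where the fit without the block gave 0.31). The block gave -0.30 for Robo4, -0.19 for Tie1, -0.47 for Flt1, -0.14 for Egfl7, -0.40 for Esam, -0.56 for Cdh5, -0.20 for Kdr and -0.95 for Tek. No paired analysis was possible for MPX against CPX because those groups share no number. The filters removed none of the 10 genes, so they say nothing of stability.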
